A study of Oryza sativa with 12 samples.

Results

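In rice leaf primordia, 207 genes had less RNA in both lines labelled as knockouts of the kinase gene OsPID. In the line labelled as a knockout of the auxin carrier genes OsPIN1c and OsPIN1d, their levels stayed within set limits around the wild type. The genes were chosen by their measured FPKM values (fragments scaled by gene length and library size). The rule took identifiers starting with Os whose log2 ratio of (group mean FPKM + 1) to (WT mean FPKM + 1) was -0.8 or less in both ospid C1 and ospid C2, and between -0.5 and 0.5 in ospin1c ospin1d. It further required the highest of the 6 ospid libraries to lie below the lowest of the other 6. Of 28962 Os identifiers among 32552 in all, 646 (2.23%) reached the limit for ospid C1 and 938 (3.24%) reached it for ospid C2, with 443 reaching both. Of these 443, 266 lay within the limits for ospin1c ospin1d, 157 lay below them and 20 above. Among the 266, 207 also had libraries that did not overlap. Every difference of these genes from WT or from ospin1c ospin1d was therefore used to choose them and is given as a description. The difference between ospid C1 and ospid C2 was not set directly by the rule and was tested. The rule bears on it too, since genes that reached the limit in a single line were left out.

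The study sequenced RNA from leaf primordia, the young leaves forming at the shoot tip, in 4 groups of 3 libraries. The groups were the wild type, Nipponbare (WT), the double mutant ospin1c ospin1d, and the 2 OsPID lines ospid C1 and ospid C2, all from chamber-grown plants on a 15 h day (28 °C) and a 9 h night (24 °C). The labels give no age or stage, do not say whether ospid C1 and ospid C2 arose independently, and give 1 line for ospin1c ospin1d. Library depth worked out from the FPKM values was 15211547 to 16422849 reads, so that 1 read on a gene of 1 kb was worth 0.0609 to 0.0657 FPKM. Of these reads 99.95% to 99.98% lay on the listed identifiers, so this depth counts reads assigned to genes and not all reads sequenced.

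Auxin is a plant hormone that is moved from cell to cell, and its local maxima at the flank of the shoot tip mark where leaves start. PIN proteins are membrane carriers that export auxin, and their position on one side of a cell sets the direction of flow. PINOID, best known from Arabidopsis, is a protein kinase that phosphorylates PIN carriers and so affects their activity and placement.

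The files list genes by identifier alone. The RefSeq table of assembly ASM3414082v1 matched 1 of the 32552 identifiers and none of the 207 genes, so they are given here by identifier, with no gene name or role. For the same reason neither the loss of OsPID, OsPIN1c and OsPIN1d nor the tissue could be checked against marker genes, and the genotypes are those of the labels. The first 2 digits of an identifier give the chromosome under the naming convention of the rice annotation.

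**Figure D1:**
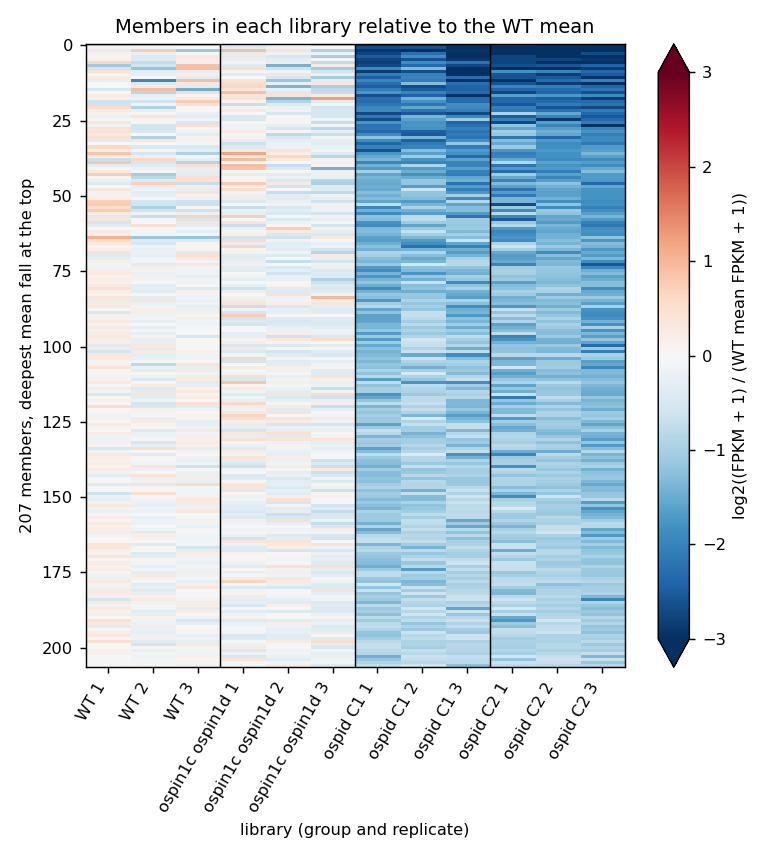
The 207 genes (rows, those lowest in the ospid lines at the top) in the 12 libraries (columns), coloured by log2 of (FPKM + 1) over (WT mean FPKM + 1). The 6 ospid columns are blue, below WT, in every row, a contrast that the choice of genes fixed. The WT and ospin1c ospin1d columns scatter on both sides of 0. The medians of the ospin1c ospin1d columns lie below 0, at -0.06, -0.18 and -0.27.

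The genes covered a wide range of abundance. Their mean WT level ran from 1.14 to 3239.7 FPKM, with a median of 18.1 FPKM and quartiles of 7.79 and 36.7. The median over the 19641 Os identifiers that passed the filter of at least 1 FPKM in at least 3 libraries was 8.21 FPKM. All 207 genes passed this filter, and they were 1.05% of those that did. Their share was 0.416% (31 of 7458) below 5 FPKM in WT, 1.24% (80 of 6467) between 5 and 20 FPKM, and 1.65% (71 of 4311) between 20 and 100 FPKM. It was 1.86% (24 of 1291) between 100 and 1000 FPKM, and 1 of 114 genes lay above that. The log2 limit with 1 FPKM added is harder to reach for genes of low level, so the rule bears on this order. The read counts behind the values were large for most of the genes. The median over the 3 WT libraries together was 982 reads, 147 genes had at least 100 reads in each WT library, while Os01g0783700, with 17, 6 and 7 reads, was the single gene to fall under 10 in any of them.

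In the ospid lines the genes kept a median of 38.1% of their WT level, with quartiles of 24.98% and 44.9% and a range from 1.32% to 56.9%. The median was 39.0% in ospid C1 and 36.4% in ospid C2. On the log2(FPKM + 1) scale the mean of the differences of both lines from WT had a median of -1.21, where the median of all Os identifiers that passed the filter was 0.10. It was -2 or lower for 27 genes, between -2 and -1 for 138 and above -1 for 42. The gap between the groups was often narrow. The lowest WT or ospin1c ospin1d library stood a median of 1.35 times above the highest ospid library. For 26 genes this gap was 2 times or more, and for 27 it was under 1.1 times, down to 1.0007 for Os02g0643800. Less RNA per cell and fewer cells of a type that carries the RNA cannot be told apart in libraries made from whole primordia.

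Fitted over all 21250 tested identifiers with limma, 193 of the 207 genes were lower in ospid C1 than in WT at a Benjamini-Hochberg adjusted p under 0.05, where 5.30% of all tested identifiers were. In ospid C2 198 were lower, against 6.01% of all, and 187 were lower in both lines. Against ospin1c ospin1d, 198 were lower in the mean of the ospid lines, against 6.96% of all. These contrasts chose the genes, so nothing is read from the counts. The fitted median over all tested identifiers was itself 0.15 above WT in ospid C1 and 0.06 above WT in ospid C2, while the median over the 207 genes was -1.12 and -1.26. After median-ratio scaling, which sets the median over all identifiers near 0, the medians of the 207 genes were -1.27 and -1.32.

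**Figure D2:**
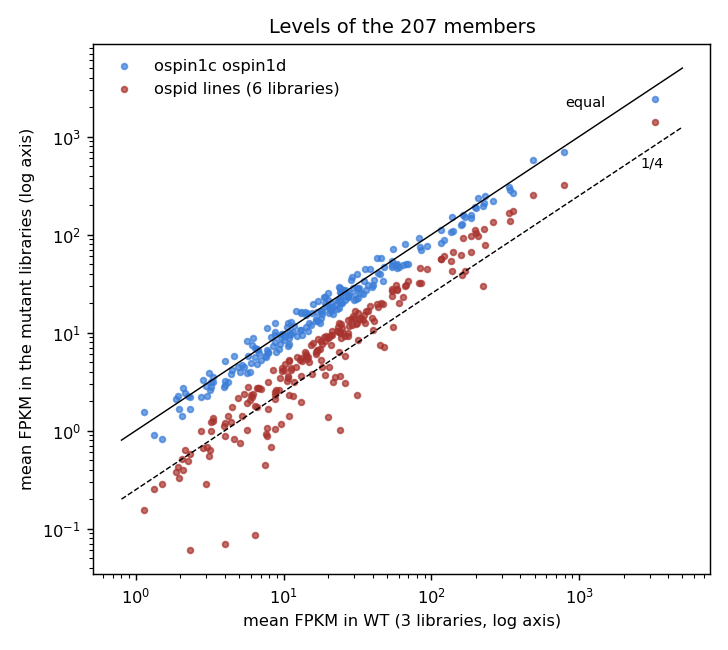
Mean FPKM of each of the 207 genes in ospin1c ospin1d (blue, 3 libraries) and in both ospid lines (red, 6 libraries) against its mean in WT, on log axes, with lines where both are equal and where the mutant mean is 1/4 of WT. The blue points lie around the line of equality, with 149 of the 207 below it. The red points lie below it over the whole range, from 1.14 to 3239.7 FPKM in WT.

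Among the genes with at least 5 FPKM in WT, Os01g0246400, on chromosome 1, had the most negative difference from WT on the log2(FPKM + 1) scale. It measured 45.8, 13.6 and 13.2 FPKM in the WT libraries and 30.3, 22.2 and 13.7 FPKM in ospin1c ospin1d. In ospid C1 it measured 0.271, 0.272 and 0.341 FPKM, and in ospid C2 2.46, 1.70 and 1.05 FPKM. The WT libraries were themselves spread, at 24.2 ± 18.7 FPKM (SD, n = 3), yet the lowest WT or ospin1c ospin1d library was 5.39 times the highest ospid library. This left 1.22% of the WT mean in ospid C1 and 7.16% in ospid C2, or log2 differences of -4.28 and -3.21. Without WT replicate 1 these shares were 2.201% and 12.9%, and the log2 differences -3.48 and -2.40. Other genes chosen by the rule missed its limit in the same check, as given below.

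Os02g0163300, on chromosome 2, came next on that scale, and its WT libraries were close together. They measured 33.8, 29.6 and 31.1 FPKM (31.5 ± 2.14, SD, n = 3), and those of ospin1c ospin1d 23.9, 28.4 and 32.6 FPKM. The ospid C1 libraries held 4.13, 4.31 and 1.53 FPKM and the ospid C2 libraries 0.884, 1.30 and 1.82 FPKM. The log2 differences from WT were -2.91 and -3.80, and the WT mean was 13.5 times that of the 6 ospid libraries.

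Os07g0509800, on chromosome 7, was the remaining gene with a mean log2 difference of -3 or lower. Its levels were 15.9, 35.2 and 8.66 FPKM in WT, 39.2, 26.3 and 9.88 FPKM in ospin1c ospin1d, 1.79, 0.897 and 1.71 FPKM in ospid C1, and 1.16, 1.41 and 1.32 FPKM in ospid C2. The libraries of WT and ospin1c ospin1d differed widely among themselves, and those of both ospid lines all lay below 2 FPKM. Without WT replicate 2 its log2 differences from WT were -2.43 in ospid C1 and -2.53 in ospid C2.

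Os02g0163300 was the first of 4 of the genes with consecutive tested identifiers, Os02g0163300, Os02g0163400, Os02g0163500 and Os02g0163533. This was the longest such run among the 207 genes and was picked out after its values were seen. Os02g0163400 was by far the most abundant of the 4, at 246, 192 and 229 FPKM in WT and 174, 201 and 207 FPKM in ospin1c ospin1d. It stood at 32.3, 45.6 and 14.8 FPKM in ospid C1 and 24.3, 27.5 and 33.5 FPKM in ospid C2, which is 13.9% and 12.8% of WT. Both lines left about the same share of this transcript.

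Os02g0163500 was a low transcript, at 8.42, 6.69 and 9.61 FPKM in WT and 6.43, 11.2 and 9.35 FPKM in ospin1c ospin1d. It was at 1.18, 1.26 and 0.158 FPKM in ospid C1 and 0.524, 0.302 and 0.646 FPKM in ospid C2. Os02g0163533 had the widest relative separation of all 207 genes, with a WT mean 75.5 times the ospid mean. Its WT libraries measured 6.99, 4.59 and 7.76 FPKM from 67, 46 and 78 reads, and the 6 ospid libraries together held 5 reads. Its ospin1c ospin1d libraries, at 5.30, 4.94 and 6.80 FPKM, overlapped those of WT.

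The tested identifiers on either side of the run lay slightly above WT in both ospid lines. Os02g0162766, just before it, measured 3.54, 1.81 and 2.46 FPKM in WT, with log2 differences of 0.40 in ospid C1 and 0.29 in ospid C2. Os02g0163600, just after it, measured 4.99, 5.30 and 5.63 FPKM in WT, 5.90, 5.49 and 6.66 FPKM in ospid C1 and 6.31, 6.197 and 4.31 FPKM in ospid C2, with log2 differences of 0.15 and 0.07. Further on, Os02g0164000 lay above WT by log2 differences of 0.66 in ospid C1 and 0.45 in ospid C2. Os02g0164300 lay above WT by 0.55 and 0.53. The identifier after these, Os02g0164400, was lower than WT in all mutant lines, so the rule left it out. Its log2 difference was -1.03 in each ospid line and -0.81 in ospin1c ospin1d. The sources used here do not say whether strand was used in counting, and reads of overlapping or near-identical neighbouring genes could be shared among the 4 identifiers.

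**Figure D3:**
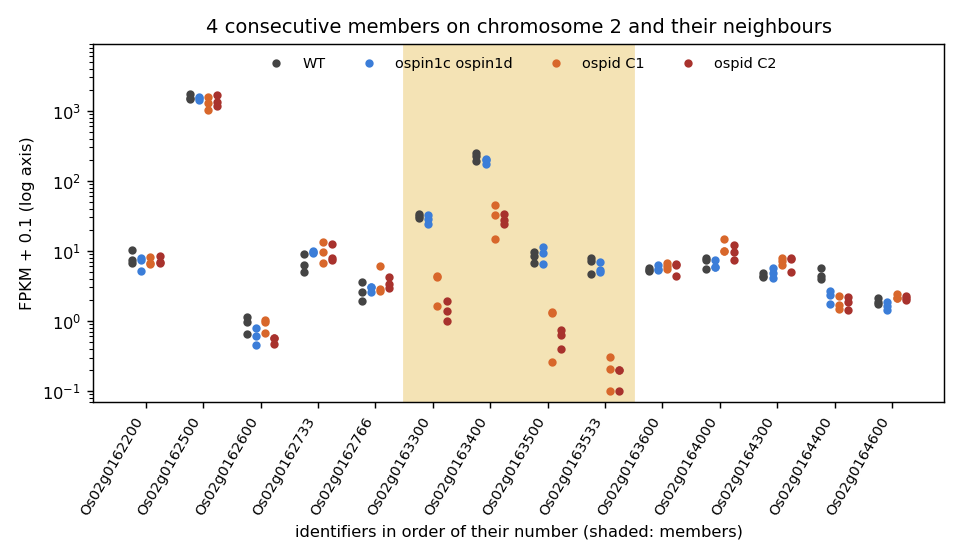
FPKM + 0.1 (log axis) in each library, coloured by group, for identifiers in order along chromosome 2, with the run of 4 shaded. All but Os02g0162600 were tested. Within the shading the ospid C1 and ospid C2 points lie below those of WT and ospin1c ospin1d without overlap, and for the identifiers next to it on each side the groups lie close together.

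Besides this run, 4 pairs of the genes had consecutive tested identifiers. They were Os03g0269900 with Os03g0270000, Os03g0820300 with Os03g0820400, Os06g0711900 with Os06g0712200, and Os10g0155100 with Os10g0155200. In all, 12 of the 207 genes stood next to another of them. Os03g0820300 measured 3.01, 4.60 and 14.9 FPKM in WT, 0.301, 0.678 and 0.302 FPKM in ospid C1 and 0.358, 0.434 and 0.618 FPKM in ospid C2. Os03g0820400 measured 15.4, 9.97 and 46.5 FPKM in WT, 5.76, 8.95 and 1.68 FPKM in ospid C1 and 0.974, 1.97 and 2.48 FPKM in ospid C2. Both genes of this pair were highest in the same WT library, replicate 3.

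The most abundant of the genes was Os01g0251400. It measured 2496, 3900.0 and 3324 FPKM in WT, 2258, 2404 and 2604 FPKM in ospin1c ospin1d, 1114, 2007 and 1767 FPKM in ospid C1, and 1455, 1489 and 645 FPKM in ospid C2. The ospid libraries stood below all others, but the highest of them, in ospid C1, was close to the lowest of ospin1c ospin1d. Of the WT mean, 50.3% was left in ospid C1 and 36.9% in ospid C2, while ospin1c ospin1d stood at 74.8%. The limma adjusted p against WT was 0.0112 in ospid C2 and 0.0481 in ospid C1. The latter was 0.0902 with no filter and 0.129 without WT replicate 2, and 0.0289 with voom.

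Os02g0757100 was next in abundance, at 878, 775 and 706 FPKM in WT and 778, 822 and 502.5 FPKM in ospin1c ospin1d. It was at 346, 495 and 211 FPKM in ospid C1 and 252, 307 and 323 FPKM in ospid C2. The highest ospid library and the lowest ospin1c ospin1d library almost met. More abundant genes kept a larger share of their WT level, with a median of 22.1% left in the 31 genes below 5 FPKM, 36.8% between 5 and 20, 42.0% between 20 and 100 and 47.5% between 100 and 1000 FPKM. The 1 FPKM added in the rule demands a deeper difference of low genes, so the rule bears on this order too. The 1 gene above 1000 FPKM kept 43.6%. On the log2(FPKM + 1) scale the median differences did not follow this order. From the lowest range up to 1000 FPKM they were -1.11, -1.25, -1.20 and -1.07.

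At the other end, 5 of the genes were listed at 0 in at least 1 ospid library and none in all 6, with 12 such values in total. None was at 0 in WT or in ospin1c ospin1d. Os06g0127100 was at 2.26, 2.32 and 7.44 FPKM in WT, from 27, 29 and 93 reads. It was at 0, 0.420 and 0 FPKM in ospid C1, where the single value came from 5 reads, and at 0 in all 3 libraries of ospid C2. Against a floor of 3 reads over the 3 libraries, its level in ospid C2 was at least 48.9-fold lower than in WT. Os01g0830900 had the reverse pattern of zeros. It was at 5.95, 1.79 and 1.17 FPKM in WT and at 3.004, 2.95 and 2.58 FPKM in ospin1c ospin1d. It was at 0 in all 3 libraries of ospid C1, at least 36.4-fold lower than in WT by the same floor, and at 1.16, 0.313 and 0.251 FPKM in ospid C2. Without the highest WT library of each, these bounds were 28.0-fold for Os06g0127100 and 18.1-fold for Os01g0830900. Both genes are named after their values were seen, and floors cover counting error only.

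The limits of the rule cut through a continuous range. Just inside the limit of -0.8, Os02g0696500 had log2 differences of -0.813 and -0.801 in ospid C1 and ospid C2, and Os03g0320600 of -0.802 and -1.20. Just outside, Os04g0498900 had -0.799 and -0.913, and Os03g0807900 had -1.06 and -0.797. Os02g0696500 measured 200.3, 208 and 181 FPKM in WT, 118, 133 and 83.2 FPKM in ospid C1 and 114, 112 and 111 FPKM in ospid C2. Genes on both sides of the limit thus had similar differences from WT.

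Whether the genes differed between the 2 OsPID lines was not set directly by the rule, which put an upper limit in each. Genes low in a single line were left out, so those limits bear on the counts below. None of the 207 passed the limma test between ospid C2 and ospid C1 at an adjusted p under 0.05, where 2 of all 21250 tested identifiers (0.00941%) did. At an unadjusted p under 0.05 there were 27 of the genes (13.04%), 18 lower and 9 higher in ospid C2, beside 10.5% of all tested identifiers. The median log2 difference of ospid C2 minus ospid C1 was -0.10 over the genes, with quartiles of -0.32 and 0.08 and 130 (62.8%) of them lower in ospid C2. Over all tested identifiers it was -0.09, with 66.6% lower in ospid C2. The median standard error of a gene's difference was 0.23, so differences of the size of the median were not detectable for single genes.

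All 3 ospid C2 libraries lay below all 3 of ospid C1 for 26 of the genes (12.6%), beside 11.6% of all tested identifiers. The reverse held for 15 (7.25%), beside 3.43% of all. For 6 of the genes the fitted difference exceeded 1 in size. It was positive for Os01g0246400, Os01g0281100, Os01g0850900 and Os02g0513100, and negative for Os03g0820400 and Os05g0497200.

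The lowest p among the genes belonged to Os01g0281100. Its levels were 67.2, 45.2 and 53.5 FPKM in WT, 71.1, 75.1 and 67.7 FPKM in ospin1c ospin1d, 8.10, 9.41 and 4.02 FPKM in ospid C1, and 17.1, 15.95 and 13.9 FPKM in ospid C2. Every ospid C2 library lay above every ospid C1 library. The fitted difference of 1.09 (SE 0.233) had an adjusted p of 0.160 by limma.

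Os05g0497200 followed, in the other direction. It measured 23.8, 19.3 and 32.1 FPKM in WT, 28.4, 25.5 and 27.5 FPKM in ospin1c ospin1d, 10.8, 16.8 and 13.6 FPKM in ospid C1, and 5.46, 9.14 and 3.45 FPKM in ospid C2. Every ospid C2 library lay below every ospid C1 library. The fitted difference was -1.13 (SE 0.270) with an adjusted p of 0.190 by limma, and of 0.0479 without ospid C2 replicate 2. It was the single gene of the 207 called between the lines under that or any other setting tried. Against WT, limma did not call it lower in ospid C1 (adjusted p of 0.0606) and called it lower in ospid C2 (0.00156).

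**Figure D4:**
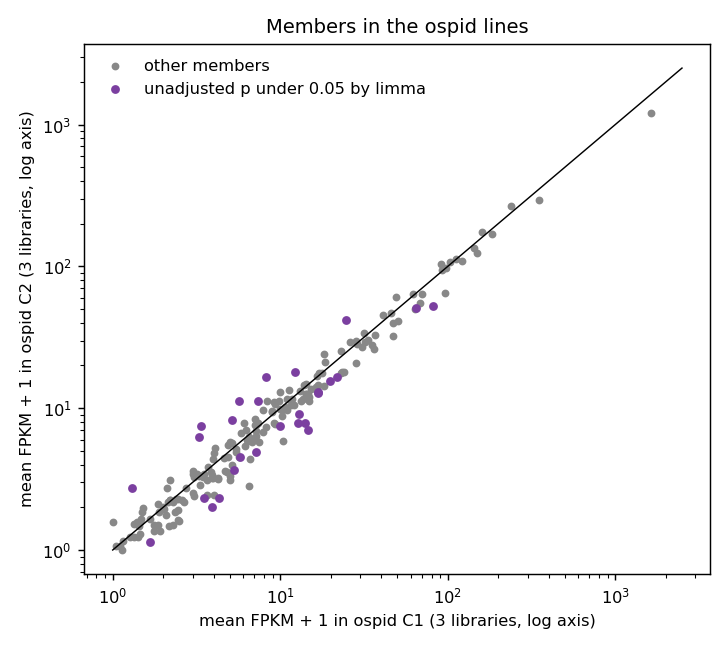
Mean FPKM + 1 of the 207 genes in ospid C2 (vertical, log axis) against ospid C1 (horizontal, log axis), with a line of equality. The points scatter on both sides of the line, and the 27 genes with an unadjusted p under 0.05 by limma (purple) are 18 below it and 9 above.

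In ospin1c ospin1d the genes measured a median of 88.1% of their WT level, with quartiles of 79.3% and 105% and a range from 54.5% to 146%. None of the 207 was called against WT by limma at an adjusted p under 0.05, where 2.31% of all tested identifiers were, and the limits of the rule bear on that count. Within those limits, 149 genes (72.0%) lay below WT in ospin1c ospin1d, beside 52.8% of all Os identifiers that passed the filter. The WT libraries enter both this value and the differences of the ospid lines, and they helped choose the genes. The median log2 difference of the genes in ospin1c ospin1d was -0.17 and the range ran from -0.50 to 0.48.

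The WT libraries themselves were spread for many of the genes. The highest WT library was at least 2 times the lowest for 46 of them (22.2%), beside 10.5% of all Os identifiers that passed the filter. At a WT mean of 5 FPKM or more it was 34 (19.3%), beside 3.85%. A high WT library raises the WT mean, from which the rule measured each difference, so the rule bears on these shares. The highest was WT replicate 1 for 23 of the 46 genes, replicate 2 for 9 and replicate 3 for 14. Os01g0246400 and Os03g0820400 were among them, with different WT libraries at the top. Without their highest WT library, some of the genes missed the limit of the rule in both ospid lines. In ospid C1 and ospid C2 the log2 differences were then -0.25 and -0.29 for Os06g0651000. They were -0.58 and -0.58 for Os01g0783700, and -0.52 and -0.74 for Os10g0376400. Other genes stayed beyond the limit, such as Os03g0820400 at -1.08 and -2.29. The genes on each side were not counted.

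Taken library by library, the median level of the genes was 109%, 88.9% and 95.7% of the WT mean in the WT libraries and 96.0%, 87.2% and 82.0% in those of ospin1c ospin1d. It was 35.1%, 41.3% and 38.2% in ospid C1 and 34.8%, 38.7% and 30.4% in ospid C2. The rule required all 6 ospid libraries to be low for every gene. The highest of the 6 ospid values came from ospid C1 replicate 2 for 70 genes and from ospid C2 replicate 1 for 49. The lowest came from ospid C2 replicate 3 for 69 genes, and ospin1c ospin1d replicate 3 was the lowest of the other 6 libraries for 64.

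The rule was applied without each library in turn, and the genes it then chose were looked up in that library. Without an ospid library the rule chose 194 to 276 genes, and 79.7% to 99.1% of them also lay below all WT and ospin1c ospin1d libraries in the library left out. Of all Os identifiers that passed the filter, 14.9% to 24.4% did so. The lowest share was that of ospid C1 replicate 2 (220 of 276) and the highest that of ospid C2 replicate 2 (211 of 213). Without a WT or ospin1c ospin1d library, 179 to 231 genes were chosen, and 86.1% to 97.8% of them lay above all ospid libraries in the library left out, beside 16.1% to 20.2% of all. The library left out shared its line with libraries that chose the genes. The libraries it was compared with had also chosen them, while the shares of all Os identifiers come without such a choice. The shares thus describe libraries of the same lines and are no test in new plants.

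The genes lay on all 12 chromosomes, by their identifiers. Chromosome 1 held 46 of them (22.2%), where 14.4% of all Os identifiers that passed the filter lie. The genes were 1.62% of those on chromosome 1 and 1.35% of those on chromosome 6, and 0.563% and 0.492% of those on chromosomes 9 and 11. The length used by the authors, worked out from the FPKM steps, had a median of 1051 bases with quartiles of 757.5 and 1522.5, beside 1519 bases for all Os identifiers that passed the filter. No test was made of either difference.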

How the data were processed

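The authors deposited 1 table of FPKM values by identifier for each library. Build IRGSP-1.0 and the tools HISAT2 2.1.0, HTSeq 0.6.0 and Bowtie2 2.2.3 are named, with no parameters, in the submitters' processing notes. Libraries were made from 2 µg of total RNA, per the labels' protocols. Gene lengths, depth and reads were recovered from the spacing of low FPKM values, each a whole number of reads. Lengths came out whole within 0.05 bases for 99.96% of the low genes used and are lower bounds.

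Groups and replicate numbers came from the titles. The labels do not say that replicates are separate plants, so a p-value covers only the spread among these libraries, which may be technical. log2(FPKM + 1) of all 12 libraries was fitted in limma 3.58.1 (R 4.3.3, trended variance) for identifiers with at least 1 FPKM in at least 3 libraries, with Benjamini-Hochberg adjustment over 21250, and tested on simulated data.

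The genes and tests were chosen with earlier results of these data known. Named genes are the 2 with the most negative log2(FPKM + 1) difference from WT at 5 FPKM or more in WT, the 2 most abundant, those at the limit of -0.8, the 2 of lowest p between the ospid lines and the longest runs of neighbours. A planned definition of neighbours by distance in identifier number linked 158 of the 207 genes and was replaced by consecutive tested identifiers after the values were seen. Other genes named were also chosen after their values were seen. The count of reads was used in voom, an alternative added later, as were levels without the highest WT library.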

Additional observations from a re-analysis of the deposited data

How the results depend on the processing

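The rule chose 207 genes, 298 after median-ratio scaling (200 shared) and 255 with 0.1 FPKM added (193 shared). It chose 139 with ospin1c ospin1d held within 0.3, 124 with a limit of -1, and 179 to 276 without 1 library. Without 1 WT library, 152 to 165 of the 207 were chosen again, and without 1 library of another group 185 to 207 were. Of the 207, 171 to 202 were lower in ospid C1 than in WT and 172 to 198 in ospid C2 over the other settings, and 137 to 199 and 156 to 197 without 1 library. Against ospin1c ospin1d the ospid mean was lower for 188 to 204, and 155 to 201 without 1 library. Between the ospid lines 0 were called under every setting, and 0 to 1 without 1 library. Between ospin1c ospin1d and WT 0 were called, 1 with only the groups compared in the fit, 1 with voom and 0 to 1 without 1 library. The median of ospid C2 minus ospid C1 ran from -0.149 to -0.0667 without 1 library and was -0.02 after median-ratio scaling. With the replicate block, whose numbers do not pair the libraries (correlations of -0.227 to 0.0694), 179 genes were lower in ospid C1 and 190 in ospid C2. Over all tested identifiers, calls lower than WT ran from 444 to 1908 around 1127 in ospid C1 and from 757 to 1500 around 1277 in ospid C2. Calls below ospin1c ospin1d ran from 680 to 2114 around 1478, those between ospin1c ospin1d and WT from 185 to 788 around 490, and those between the ospid lines from 0 to 42 around 2. The cause of these shifts was not tested.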

Other observations

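Among the 3584 identifiers that start with EPlOSAG, 1 met the rest of the rule. EPlOSAG00000052445 measured 19.5, 11.6 and 5.59 FPKM in WT and 24.1, 14.9 and 5.99 FPKM in ospin1c ospin1d. It measured 5.07, 0.782 and 3.92 FPKM in ospid C1 and 4.46, 2.63 and 4.01 FPKM in ospid C2. Its highest ospid library lay just below the lowest WT library, and its short length of 164 bases gives few reads per FPKM. By limma it was not called lower than WT in ospid C1 (adjusted p of 0.0605) or in ospid C2 (0.142). The mean of the ospid lines was called lower than ospin1c ospin1d (0.0274).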
